A study of Mus musculus with 7 samples.

Results

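Small leucine-rich proteoglycans are secreted proteins of connective tissue with a core of leucine-rich repeats, most of them carrying sugar chains. Of the 9 genes chosen by name for this family (Dcn, Bgn, Aspn, Lum, Fmod, Prelp, Omd, Ogn and Podn), 8 had an array row on which the platform annotation gave them as the only gene symbol, out of 13562 genes named that way. Each of the 8 had 1 row. Omd, which encodes the bone and tendon protein osteomodulin, is unnamed here and has no value.

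The core proteins bind along collagen fibrils and set how thick the fibrils grow and how evenly they are spaced. Decorin, biglycan and asporin (genes Dcn, Bgn and Aspn) form the family's class I, of which the first pair carries chondroitin or dermatan sulfate. Lumican, fibromodulin, PRELP and osteomodulin (Lum, Fmod, Prelp and Omd) form class II, which tends to carry keratan sulfate, osteoglycin (Ogn) belongs to class III, and podocan (Podn) to class V. Fibroblasts are a main source of these proteins, and several members also bind growth factors of the TGF-beta family.

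The study profiled 7 mouse RNA samples on Affymetrix arrays, 1 array per condition. The V6.5 embryonic stem cells (ESCs) were Utx +/Y, here WT, or Utx -/Y, here KO, Utx being the X-linked demethylase gene Kdm6a that removes the Polycomb mark from histone H3. The embryonic fibroblasts (MEFs, V19-OSKM) were Utx +/Y or Utx -/Y, each without and with doxycycline (DOX), which turns on the OSKM set of reprogramming factors (Oct4, Sox2, Klf4 and Myc). The remaining sample was Nanog-/- fibroblasts, made from Nanog-/- ESCs, that had carried OSKM on a lentivirus for 8 days, so it differs from the DOX-treated MEFs in cell source and in factor delivery. The labels do not say how long DOX was given, how many embryos gave the MEFs or whether a genotype is 1 clone, and they name the same ESC medium for all samples, fibroblasts included. Values are deposited log2 values, and since each condition had 1 array, the differences come without replicates and without p-values. A gene is called 2-fold or more apart where its log2 difference is at least 1 in size and its higher value exceeds a floor of 7.34, the 40th percentile of all values.

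Both ESC libraries had 9 of 9 measured pluripotency markers above the floor, and all fibroblast libraries except WT MEFs with DOX had 9 of 9 measured fibroblast markers above it. WT MEFs with DOX had 5 of 9, with Pdgfra, Pdgfrb, Twist2 and Snai2 under the floor. Kdm6a itself read 9.12 in WT against 7.97 in KO ESCs. It read 8.22 against 6.32 among uninduced MEFs and 8.93 against 7.57 among DOX-treated ones, so it was lower wherever the label says KO. Pou5f1, which encodes Oct4, went against the DOX labels of the KO MEFs, at 11.26 in the library labelled KO without DOX and 5.12 in the one labelled KO with DOX, against 8.19 and 12.59 in WT. These libraries are therefore called by their labels, and any direction that involves them depends on the labels being right. Eif2s3y, a gene of the Y chromosome, read 4.19 to 5.42 in the 3 KO libraries and 8.28 to 8.56 in the 3 WT libraries, although the labels give all of them a Y. Array medians were 7.68 to 7.84 except for the Nanog KO array at 8.55, so its differences are also given with medians aligned.

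Most members of the family lie beside one another in the genome. In the RefSeq gene order of assembly GRCm38.p6, used here for neighbours only, Dcn and Lum were adjacent with 0 genes between them, as were Aspn and Omd, and Omd and Ogn. Prelp and Fmod had 0 protein-coding genes between them. Promoter entries from RefSeq were found for 7 of the 9 genes, and 5 stretches are printed because they belong to neighbours that behaved alike (Aspn and Ogn), to neighbours that did not (Prelp and Fmod), and to the member with the most CpG-dense start (Podn). Each holds the 250 bases before a transcript start, 5′ to 3′ on the gene's strand, with every CpG dinucleotide in capitals. They lie at chr13:49544193-49544442 (plus strand, Aspn), chr13:49607765-49608014 (plus, Ogn), chr1:134037004-134037253 (plus, Fmod), chr1:133921402-133921651 (minus, Prelp) and chr4:108031955-108032204 (minus, Podn) of GRCm38.p6.
Aspn: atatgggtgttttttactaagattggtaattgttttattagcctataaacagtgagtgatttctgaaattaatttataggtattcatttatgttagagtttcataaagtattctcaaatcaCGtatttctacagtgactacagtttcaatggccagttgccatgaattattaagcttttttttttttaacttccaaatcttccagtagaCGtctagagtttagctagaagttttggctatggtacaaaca
Ogn: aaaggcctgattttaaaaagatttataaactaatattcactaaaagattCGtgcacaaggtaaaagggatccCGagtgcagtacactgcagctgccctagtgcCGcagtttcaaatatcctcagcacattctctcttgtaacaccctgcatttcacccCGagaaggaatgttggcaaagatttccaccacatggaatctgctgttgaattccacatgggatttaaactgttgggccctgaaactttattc
Fmod: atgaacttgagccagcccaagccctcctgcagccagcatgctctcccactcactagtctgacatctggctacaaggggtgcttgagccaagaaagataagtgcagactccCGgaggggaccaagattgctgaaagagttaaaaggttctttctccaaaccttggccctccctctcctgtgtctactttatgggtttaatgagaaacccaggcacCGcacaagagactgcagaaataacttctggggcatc
Prelp: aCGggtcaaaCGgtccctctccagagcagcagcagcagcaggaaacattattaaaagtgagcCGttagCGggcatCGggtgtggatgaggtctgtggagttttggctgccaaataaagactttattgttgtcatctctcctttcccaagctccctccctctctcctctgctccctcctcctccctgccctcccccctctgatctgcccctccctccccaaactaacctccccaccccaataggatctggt
Podn: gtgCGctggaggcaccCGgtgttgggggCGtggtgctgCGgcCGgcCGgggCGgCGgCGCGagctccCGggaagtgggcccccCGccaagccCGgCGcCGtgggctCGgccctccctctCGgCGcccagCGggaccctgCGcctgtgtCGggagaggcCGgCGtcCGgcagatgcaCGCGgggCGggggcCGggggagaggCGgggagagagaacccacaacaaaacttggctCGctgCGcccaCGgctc

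The stretches differed widely in base composition. The Aspn stretch had a GC content of 30.0% and 2 CpG dinucleotides, the Ogn stretch 42.0% and 4, the Fmod stretch 51.2% and 2, and the Prelp stretch 55.6% and 5. The Podn stretch had 78.0% and 32, more CpG than 95.4% of 32851 promoter stretches of the same length, whose median was 52.4% GC and 6 CpG. Podn had another start in the table, with 64.0% GC and 7 CpG, and the stretch before Bgn, an X-linked gene, had 64.4% GC and 7. Of the short motifs searched on both strands, TATAAA (in 12.4% of all stretches) occurred 2 times in the Aspn stretch and at 2 overlapping positions in the Ogn stretch, CCAAT (33.8%) occurred in those of Aspn and Prelp, and GGAATG (12.6%), the core bound by TEAD factors, in that of Ogn. TGANTCA (6.75%), an AP-1 motif, occurred in 0 of the members' stretches, which says only that these letters are not in these windows.

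In WT MEFs, DOX went with far lower values for 6 of the 8 proteoglycan genes, while Dcn and Prelp stayed at their fibroblast level. All 8 were above the floor on at least 1 of these arrays, 6 were 2-fold or more lower and 0 were higher, against 13.7% lower and 11.9% higher among 9524 genes. The median difference of the 8 was -3.94, against 0.00 over those genes. With DOX only 4 of the 8 were above the floor, so the size of this median was not measured. Aspn, Ogn, Lum, Fmod, Podn and Bgn made up the lower set, with log2 differences from -6.90 to -2.94. That Dcn is kept and that Lum and Aspn are lost was part of the description by which the genes were grouped.

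Decorin, which coats collagen fibrils and holds TGF-beta in the matrix, read 11.85 without and 12.13 with DOX, a log2 difference of 0.29. Prelp, whose protein ties basement membrane to connective tissue, read 10.85 and 11.55, a difference of 0.69. Both genes thus stayed above WT ESCs, where Dcn read 6.03 and Prelp 8.23. Under a looser threshold of 1.5-fold Prelp counts as higher with DOX.

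Asporin, a class I protein with a run of aspartates and no sulfated chain, read 11.70 without and 4.80 with DOX. With the lower side set to the floor this is at least 20.6-fold lower. Osteoglycin, once named mimecan, read 10.82 and 4.67, at least 11.1-fold lower. Lumican, the keratan sulfate proteoglycan of the clear cornea, read 9.82 and 4.23, at least 5.56-fold lower. All 3 ended under the floor, so their true folds are not measured.

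Fibromodulin, a collagen organiser of tendon, read 11.71 without and 7.67 with DOX, a log2 difference of -4.04 or 16.4-fold, and remained just above the floor. Podocan read 10.07 and 6.23, at least 6.65-fold lower. Biglycan, the close relative of decorin, read 12.81 and 9.87, which is 7.67-fold lower, and kept a value well above the floor. Among neighbouring genes, Lum differed by -5.59 beside Dcn at 0.29, a contrast that was part of the description by which the genes were grouped. Fmod differed by -4.04 near Prelp at 0.69, whereas Aspn and Ogn, at -6.90 and -6.15, differed alike. Lum, Aspn and Ogn ended under the floor, so these sizes are not measured.

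**Figure D1:**
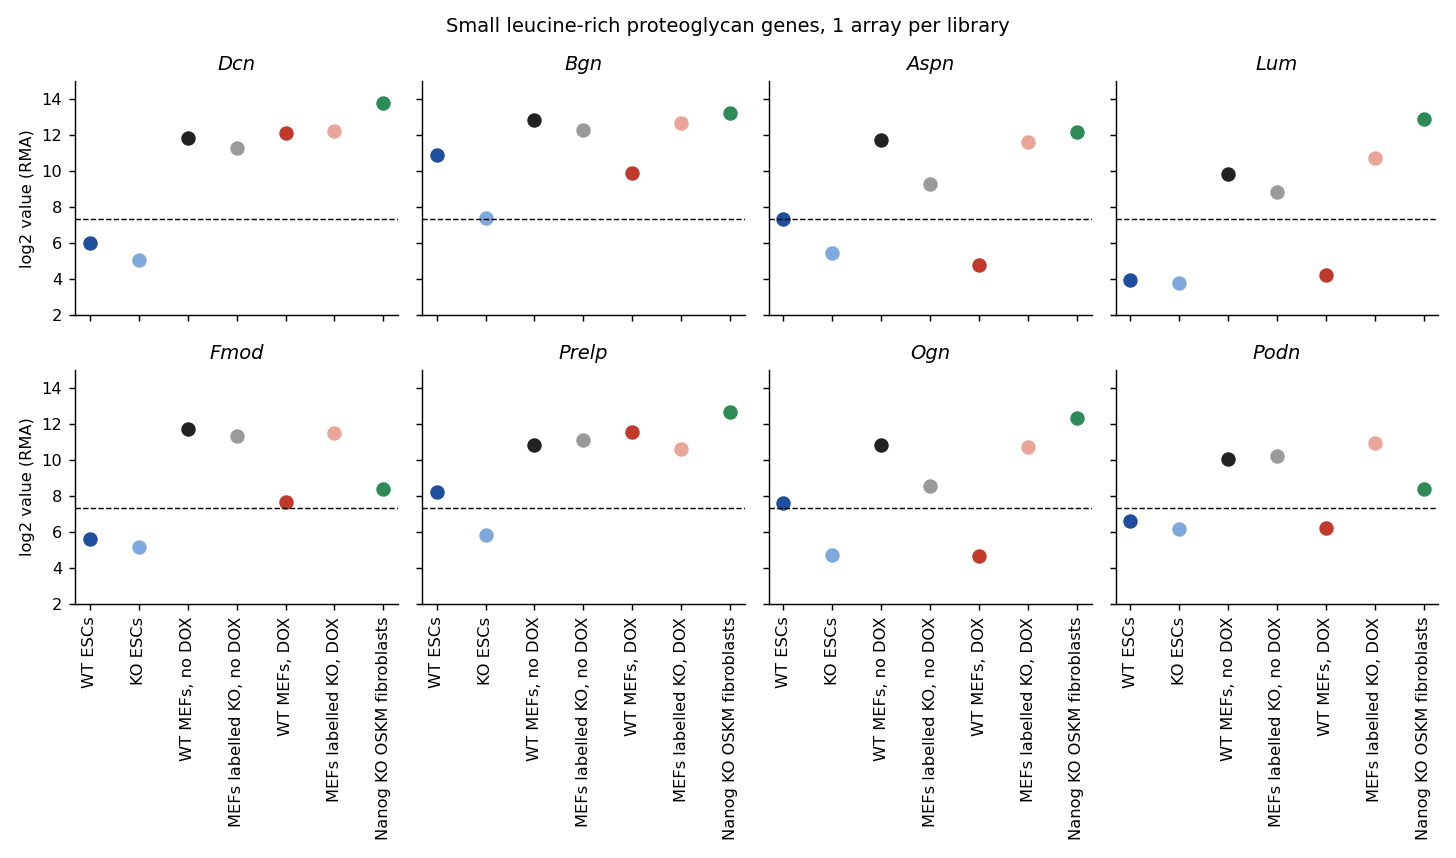
Deposited log2 value (vertical axis) of each of the 8 proteoglycan genes in the 7 libraries (horizontal axis), 1 point per array, with the floor of 7.34 dashed. In WT MEFs with DOX, Aspn, Lum, Ogn and Podn lie under the floor, while Dcn at 12.13 and Prelp at 11.55 do not.

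Set beside WT ESCs, the DOX-treated WT MEFs differed in both directions. Bgn read 9.87 against 10.92 in WT ESCs and Ogn 4.67 against 7.63, both lower. Dcn, Prelp and Fmod read higher than in WT ESCs, Fmod at 7.67 against 5.58. For Ogn and Fmod the lower value was under the floor and the higher one just above it, so the sizes of these differences were not measured. Aspn, Lum and Podn were under the floor in both libraries, so their order was not measured.

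Markers of other cell types differed between these libraries as well. Of the 9 measured fibroblast markers, 7 were 2-fold or more lower with DOX and 0 higher, and their summed linear level was 25923 without and 10123 with DOX. Vim, the highest of them at 13.14 and 12.46, weighed most in these sums. Prrx1, a mesenchymal transcription factor, read 11.85 and 11.38. All 9 measured epithelial markers were higher, their sum being 683 and 31221, and of 10 macrophage markers 9 were lower, with sums of 11845 and 918 and all but Cd68 under the floor with DOX. Of 7 measured tendon and cartilage markers, 5 were lower, led by Tnmd at -6.69, with sums of 4144 and 504 and 7 of 7 under the floor with DOX. The part of these cell types in the proteoglycan values was not tested, and in such bulk RNA fewer cells of a type and less RNA per cell cannot be told apart.

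Among genes that work with these proteins, the collagens were called lower throughout in WT MEFs with DOX, and the chain-building genes in part. Of 12 collagen genes of the fibrils or bound to them, 12 were 2-fold or more lower, with a median of -2.94, from Col12a1 at -5.99 to Col6a1 at -1.15. With DOX only 6 of the 12 were above the floor, so the size of this median was not measured. Of 24 measured genes for building and sulfating chondroitin, dermatan or keratan chains, 20 were above the floor on at least 1 of these arrays. Of these, 12 were called lower and 1 higher, and the median of the 24 was -1.05. With DOX only 12 of the 24 were above the floor, so several lower calls are not measured 2-fold differences. Chsy3, a chondroitin chain synthase, differed by -3.81, and Chst15, a sulfotransferase, by 2.48. Xylt1 and Xylt2, which start the chondroitin and dermatan chains, were both among the lower ones, Xylt2 at 8.19 without and 7.06 with DOX. Xylt1, Xylt2, Chsy3 and Col12a1 were under the floor with DOX, so the sizes of their differences were not measured. All these counts stand beside 13.7% lower and 11.9% higher over all genes, and the lists were chosen with earlier results of these data known.

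Proteoglycans outside the family had a mixed profile. Of 20 measured, 8 were lower and 1 higher, with a median of -0.74, from the glypican Gpc3 at -5.50 to Srgn, the granule proteoglycan serglycin, at 1.89. Perlecan (Hspg2) read 11.12 without and 10.95 with DOX. Among 14 growth factors, receptors and matrix signalling proteins that decorin, biglycan and their relatives bind or act with, 7 were lower and 1 was higher, with a median of -1.12. Ccn4 differed by -3.74 and Bmp2 by 3.09. Gpc3 and Ccn4 were under the floor with DOX and Bmp2 without, so the sizes of their differences were not measured. Of the family's 9 other genes, 3 were named on the array: Optc and Podnl1 were under the floor in all 7 libraries, and Nyx read 8.64 to 9.13 in the 6 ESC and MEF libraries and 10.10 on the Nanog KO array.

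**Figure D2:**
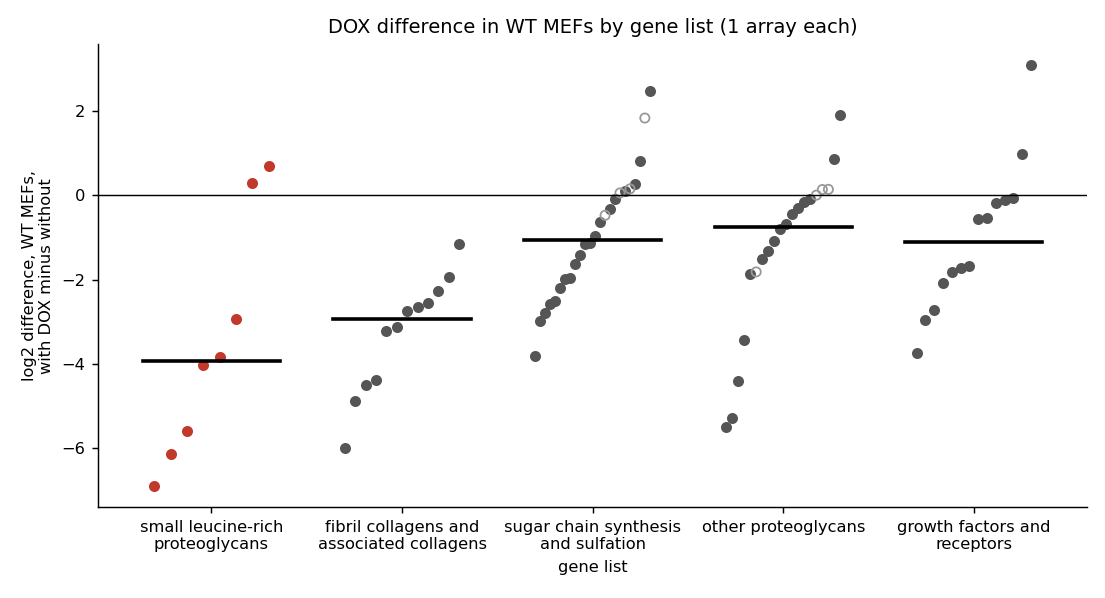
Log2 difference, WT MEFs with DOX minus without (vertical axis), for each measured gene of 5 lists (horizontal axis), with list medians as bars and genes under the floor on both arrays as open circles. The proteoglycan median is -3.94 and that of the collagens -2.94, and of the 8 proteoglycan genes plotted Dcn and Prelp lie above 0. With DOX only 4 of the 8 proteoglycan genes and 6 of the 12 collagen genes were above the floor. The sizes of these 2 medians, and the gap between them, were therefore not measured.

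In the MEFs labelled KO, by the labels as given, 3 members were higher with DOX and the other 5 lay within 2-fold. Of the 8 members, 3 were 2-fold or more higher in the library labelled with DOX and 0 were lower, against 6.81% higher and 2.93% lower among 9119 genes. With array medians aligned the background became 5.01% higher and 3.94% lower, and the same 3 members, Aspn, Ogn and Lum, were called. The median of the 8 was 0.80, against 0.13 over all genes tested.

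Aspn read 9.27 in the library labelled KO without DOX and 11.59 in the one labelled KO with DOX, which is 5.00-fold higher. Ogn read 8.52 and 10.72, which is 4.59-fold higher, and Lum 8.85 and 10.72, which is 3.66-fold higher. In WT, all 3 were lower with DOX and ended under the floor. With the DOX labels of the KO libraries exchanged, their differences would be -2.32 for Aspn, -2.20 for Ogn and -1.87 for Lum, in the direction seen in WT. Dcn differed by 0.89, Podn by 0.71, Bgn by 0.38 and Fmod by 0.15, and Prelp was the only member below 0, at -0.52.

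Marker lists differed between these libraries too. Of 7 measured tendon and cartilage markers 4 were higher in the library labelled KO with DOX, led by Tnmd at 3.28, with sums of 1033 without and 4424 with. Of 10 macrophage markers 4 were higher, with sums of 1452 and 3385. Of 9 epithelial markers 4 were lower, led by Cdh1 at -4.02, with sums of 3408 and 538 and 9 of 9 under the floor with DOX. Of 9 fibroblast markers 1 was higher, and of 9 pluripotency markers Pou5f1 and Nanog were lower. Their part in the proteoglycan differences was not tested.

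**Figure D3:**
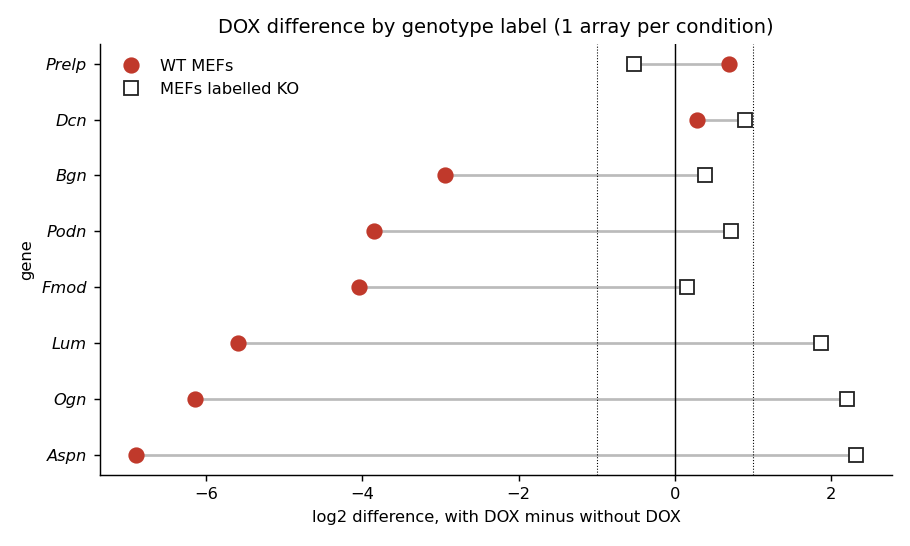
Log2 difference, with DOX minus without (horizontal axis), of each gene (vertical axis) in WT MEFs (filled circles) and in MEFs labelled KO (open squares), with dotted lines at 2-fold. Aspn, Ogn and Lum lie left of 0 in WT, where they ended under the floor, and right of the 2-fold line in the MEFs labelled KO.

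Without DOX, the library labelled KO had lower Aspn and Ogn than WT MEFs, while the other 6 members lay within 2-fold. The 2 lower members of 8 stand against 9.53% lower and 5.04% higher among 9253 genes, or 7.07% and 6.99% with array medians aligned, and 0 members were higher. Aspn read 9.27 there against 11.70 in WT, 5.41-fold lower, and Ogn 8.52 against 10.82, 4.89-fold lower. Lum, at 9.82 and 8.85, fell short of 2-fold with a log2 difference of -0.97. Fmod, at 11.71 and 11.34, and Podn, at 10.07 and 10.20, were close.

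Aspn and Ogn differed here in company with other marker lists. Macrophage markers were lower in 9 of 10 cases in the library labelled KO, with sums of 1452 against 11845 in WT, and tendon and cartilage markers in 4 of 7, with sums of 4144 and 1033. Of 9 epithelial markers 3 were higher, with sums of 683 and 3408, and of 9 fibroblast markers 2 were lower. Of the collagen genes 4 of 12 were lower, with a median of -0.80. The part of these cell types in the difference was not tested.

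With DOX, the library labelled KO had higher values than WT MEFs for the 6 members that were low in WT. These 6 stand against 14.3% higher and 12.1% lower among 9572 genes, and 0 members were lower. Aspn read 11.59 against 4.80 in WT, Ogn 10.72 against 4.67, and Lum 10.72 against 4.23, each at least 10.4-fold higher. Dcn read 12.13 and 12.20, the smallest difference of the family at 0.07. Prelp, at 11.55 and 10.59, differed by -0.95.

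This contrast shares the WT array with DOX with the WT comparison above, so the 2 sets of values are not separate evidence. Set against WT MEFs without DOX instead, the library labelled KO with DOX had 8 of 8 members within 2-fold, where 1.88% of 9024 genes were higher and 2.63% lower. The differences ran from -0.26 for Prelp to 0.90 for Lum. Epithelial markers were under the floor in both of these libraries, 9 of 9 in each, and macrophage markers summed to 3385 and 11845 respectively.

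In ESCs most of the family read low, and between WT and KO ESCs only Bgn had a measured 2-fold difference. All 8 members were 2-fold or more lower in WT ESCs than in WT MEFs without DOX, against 19.8% lower and 14.5% higher among 9673 genes, with a median of -3.92. In WT ESCs only 3 of the 8 were above the floor, so the size of this median was not measured. Bgn was the exception in level, at 10.92 in WT ESCs against 12.81 in the MEFs, only 3.71-fold lower. Fmod, at 5.58 against 11.71, was at least 20.7-fold lower, and Dcn, at 6.03 against 11.85, at least 22.7-fold lower.

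Between the ESC libraries, 3 members passed the floor and all 3 met the call for lower in KO, against 3.18% lower and 0.651% higher among 8598 genes. Prelp and Ogn passed the floor only through their WT values, so this count is not a result about the family. With the floor at the 60th percentile the count was 1, Bgn, against 2.65% lower. Bgn read 10.92 in WT and 7.42, just above the floor, in KO. It was 11.3-fold lower and the only measured 2-fold difference. Prelp read 8.23 and 5.82, and Ogn 7.63 and 4.72, and with the lower side at the floor they were at least 1.85-fold and at least 1.22-fold lower. The other 5 members were under the floor in both libraries, with differences from -1.89 for Aspn to -0.14 for Lum. Aspn, at 7.32 in WT, lay just under the floor, and with array medians aligned it was called as well.

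Other matrix and fibroblast genes differed in the same direction between the ESC libraries. Of 12 collagen genes, 6 were above the floor in at least 1 library and 4 were called lower in KO, among them Col12a1 at -3.37. In KO only 1 of the 12 was above the floor and Col12a1 was not, so most of these sizes were not measured. Of 9 measured fibroblast markers, 6 were called lower and 0 higher, with summed levels of 8932 in WT and 3094 in KO. Pdgfra, Twist1 and Twist2 were under the floor in both libraries. In KO all markers but Vim were under it, so the sizes of the other differences were not measured. Vim, the highest of the markers at 12.70 and 11.27, weighed most in these sums. Tgfb3, a ligand that decorin can bind, read 9.37 in WT and 5.69, under the floor, in KO. Chain synthesis genes did not follow: of 24 measured, 11 were above the floor and 0 were called, with a median of -0.09. Of 9 measured epithelial markers 3 were lower in KO (Krt8, Krt18 at -2.15, and Dsp) and 0 higher, with sums of 6079 and 3826. Krt18 and Dsp were under the floor in KO. Of 9 pluripotency markers 0 were called, and macrophage markers were under the floor in 9 of 10 cases in both libraries. The part of these cell types in the proteoglycan differences was not tested.

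On the Nanog KO array 8 of 8 members were above the floor, but Fmod at 8.40 and Podn at 8.39 lay under its median of 8.55. The members stood in another proportion than in WT MEFs without DOX. Lum, Dcn, Prelp and Ogn were 2-fold or more higher and Fmod and Podn 2-fold or more lower, against 35.1% higher and 3.72% lower among 10740 genes. With array medians aligned, the background was 9.41% higher and 11.0% lower, Ogn was no longer called, and the 3 higher and 2 lower members kept their calls. The median gene was 0.73 higher on this array as deposited.

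Lum read 12.91 on the Nanog KO array, the highest of the 7 libraries, against 9.82 in WT MEFs without DOX, a log2 difference of 3.09 as deposited and 2.35 with medians aligned. Dcn read 13.76 and 11.85, a difference of 1.91 or 1.17 aligned, and Prelp 12.67 and 10.85, a difference of 1.82 or 1.08 aligned. In the other direction Fmod read 8.40 against 11.71, a difference of -3.31 or -4.05 aligned, and Podn 8.39 against 10.07, -1.68 or -2.43 aligned. Bgn and Aspn lay within 2-fold, and their sign depended on the scaling, at 0.39 and 0.48 as deposited and -0.35 and -0.26 aligned.

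**Figure D4:**
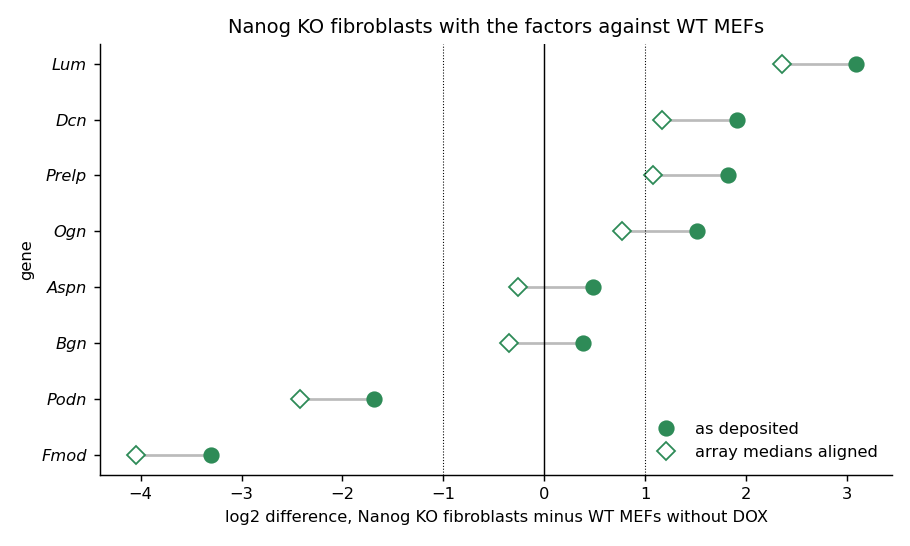
Log2 difference of each gene, Nanog KO fibroblasts minus WT MEFs without DOX (horizontal axis, genes on the vertical axis), as deposited (circles) and with array medians aligned (diamonds), with dotted lines at 2-fold. Lum is highest at 3.09 and Fmod lowest at -3.31 as deposited.

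Compared with WT MEFs with DOX, the Nanog KO fibroblasts had 7 of 8 members 2-fold or more higher, against 37.2% higher and 5.53% lower among 10833 genes. Aligned medians left 5 members higher, against 13.1% higher and 13.3% lower: Lum, Ogn, Aspn, Bgn and Podn. This contrast shares the WT array with DOX with the comparisons above, so it is not separate evidence. The loss of Lum and Aspn on that array was part of the description by which the genes were grouped. Lum read 12.91 against 4.23, at least 47.5-fold higher, and Ogn 12.33 against 4.67, at least 31.7-fold higher, both as deposited. With medians aligned these were at least 30.3-fold for Lum and at least 20.2-fold for Ogn. Podn was at least 2.07-fold higher as deposited and at least 1.32-fold aligned, so its aligned call is not a measured 2-fold difference. Fmod was nearly level with the WT library, at 8.40 against 7.67, a difference of 0.73 that became -0.01 on alignment.

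In its epithelial and macrophage sums the Nanog KO library lay between the induced and the uninduced WT MEFs. Its epithelial markers summed to 4344, against 683 in WT MEFs without and 31221 with DOX, with Epcam, Cldn4 and Cldn7 under the floor. Macrophage markers summed to 7910, against 11845 and 918, with Itgam, Fcgr1 and Ptprc under the floor. With medians aligned the epithelial sums were 2759 against 725 and 33100, and the macrophage sums 5024 against 12579 and 974. Of 7 measured tendon and cartilage markers, Tnmd and Comp were called lower than in WT MEFs without DOX and Mkx higher, at -4.80, -2.41 and 2.07 as deposited and -5.54, -3.15 and 1.33 aligned. Sox9 was 2-fold or more lower only with medians aligned, at -1.29 against -0.55 as deposited. Tnmd and Comp were under the floor on the Nanog KO array, so the sizes of their differences were not measured. The part of these cell types in the differences was not tested.

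Over the 7 arrays some members had closely similar patterns. Pearson r, computed with array medians aligned and given as a description of arrays that differ in cell type, was 0.99 for Aspn and Ogn, 0.96 for Dcn and Prelp, 0.95 for Fmod and Podn and 0.94 for Aspn and Lum. The lowest of the 28 pairs was Prelp with Podn at 0.48, and the median pair was at 0.74. Aspn and Ogn are near neighbours in the genome. Dcn and Prelp are not, and each followed the other more closely than its own neighbour, at 0.76 for Dcn with Lum and 0.65 for Prelp with Fmod. The contrast of Dcn with Lum in WT MEFs with DOX was part of the description by which the genes were grouped. Their r includes that array and is not separate evidence. Without the Nanog KO array the median pair was at 0.85. Lum with Ogn was at 0.92. Values under the floor entered r as they stood. As deposited, Aspn, Lum and Podn were above the floor on 4 of the 7 arrays, and Dcn, Fmod and Ogn on 5.

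**Figure D5:**
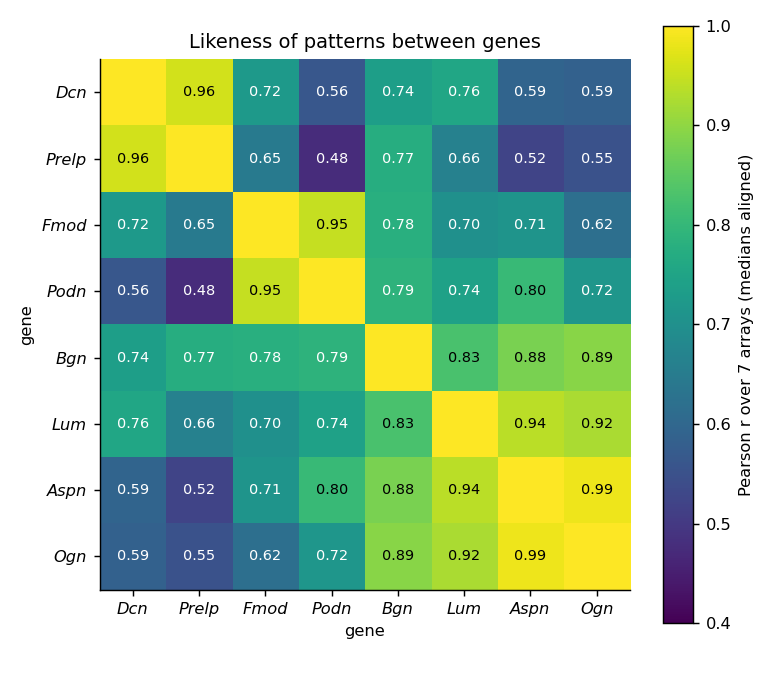
Pearson r over 7 arrays for each pair of the 8 genes (both axes), with array medians aligned. Dcn with Prelp (0.96), Fmod with Podn (0.95) and Aspn with Ogn (0.99) are the closest pairs, and Prelp with Podn (0.48) is the least alike.

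The genes nearest to each member in pattern were sought among 3515 genes above the floor somewhere and with a range of at least 2 on the log2 scale. These values of r are the highest of many, include values under the floor and are given as a description. Nearest to Dcn were the sialyltransferase gene St3gal1, Sh3bp5 and the zinc finger gene Hivep2, each at r = 0.99. Nearest to Prelp were Gng12, a G protein subunit gene, at 0.99 and the caveola coat genes Cavin1 at 0.99 and Cavin3 at 0.98. Aspn lay nearest to Creb3l1, a membrane-bound transcription factor gene of the endoplasmic reticulum, at 0.995, and both Aspn and Ogn lay near Kdelr3, a receptor that returns proteins to the endoplasmic reticulum, at 0.99.

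Lum was most like Pth1r, the receptor for parathyroid hormone, at 0.995, followed by Igf2r and Steap3 at 0.99. Fmod was most like Fzd8, a Wnt receptor gene, and the basement membrane collagen genes Col4a2 and Col4a1, each at 0.99. Podn was most like Olfml2b at 0.995, Cthrc1 and S1pr3, and Bgn most like Cyp1b1 and the collagen crosslinking gene Lox, each at 0.99, then Copz2 at 0.98. Leaving out the Nanog KO array or either library labelled KO kept r at 0.98 or above for each of these named genes with its member.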

How the data were processed

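RNA of 7 mouse samples was measured on 1 array each, and samples were grouped by their labels. Per the submitters' processing notes, the deposited log2 values come from RMA in Affymetrix Expression Console, whose versions were not given in the sources used here, nor was a genome build. RMA adjusts background, quantile-normalizes arrays run together and combines a probe set's probes. The sources do not say whether the Nanog KO array was run with the other 6. Depth has no counterpart on arrays, and their number limits the precision.

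Of 21811 rows, 14894 had 1 symbol in the platform annotation, 925 several, and 5992 had no entry and stay unnamed. The row with the highest mean stood for a gene. The 8 members matched RefSeq by gene ID. By the naming rule the text names all members, the extreme genes of the other lists (at most 4 per list and comparison), genes among the 3 most similar per member and the label checks. Xylt1, Xylt2, Hspg2, Nanog KO values of Nyx, Comp, Sox9, Krt8, Dsp, Vim, and markers named as under the floor were chosen after their values were seen. The members and lists were chosen with earlier results of these data known. List sums add linear values. At-least folds set the lower side to the floor. Calls were tested on simulated data. Python 3.11.15, numpy 2.4.6, pandas 2.3.3 and matplotlib 3.10.9 were used.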

Additional observations from a re-analysis of the deposited data

Results flagged for a closer look

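For 3 members the DOX differences of the genotypes as labelled were opposite and both 2-fold or more. The difference in MEFs labelled KO minus that in WT MEFs was 9.22 for Aspn, 8.34 for Ogn and 7.46 for Lum on the log2 scale. With 1 array per condition this was not tested. Pou5f1 went against the DOX labels of the same KO libraries, and with those labels exchanged the values would be 4.58, 3.95 and 3.71, with both genotypes lower with DOX. The WT values with DOX were under the floor, so the sizes are not measured.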

How the results depend on the processing

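The calls were repeated with medians aligned, with arrays quantile-normalized, without a floor, with the floor raised to the 60th percentile (8.48), at 1.5-fold, and with a gene's rows averaged. No called difference of a member changed sign under the scalings or the row mean. At 1.5-fold, 1 member was higher with DOX in WT MEFs (19.5% of all genes tested), 5 were higher with DOX in MEFs labelled KO (18.6%), and 1 was lower when the DOX-treated library labelled KO was set against WT (20.1%). With the floor at the 60th percentile, 1 member was lower in KO ESCs (2.65%). The other counts of called members stayed within 1.5 times of those reported. The median r of the 28 pairs, 0.74, was 0.76 on values as deposited, 0.85 without the Nanog KO array, 0.75 without the library labelled KO without DOX and 0.71 without the library labelled KO with DOX, alternatives chosen after seeing the data. No paired analysis was possible because each condition has 1 array. Values under the floor have no measured fold.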
